A study of Homo sapiens with 8 samples.

Results

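Matrix metalloproteases (MMPs), their tissue inhibitors (TIMPs) and TFPI2 were followed by RNA sequencing in the breast cancer line MDA-MB-157, an established cell line given as ER negative in the labels. The 10 genes named for this account, MMP1, MMP2, MMP3, MMP9, MMP11, MMP14, TIMP1, TIMP2, TIMP3 and TFPI2, were chosen by symbol with their CPM values and their differences between the glucose groups already known. Of the 10, 9 were among the 21059 genes tested, and MMP9 was not analysed here. Low glucose cells were held in 5 mM glucose for 48 hours (4 libraries, LG1 to LG4), and high glucose cells in 25 mM glucose for 48 hours (4 libraries, HG1 to HG4). According to the methods, both media lacked serum, and all cells were first conditioned in low glucose. The comparison asks how a glucose level that models diabetes changes the transcripts of these cells. All 8 libraries come from 1 cell line, and no library with an osmotic control is among them. The labels do not say whether the replicates were cultured on separate occasions. SDs thus measure the spread between these libraries, which may be technical, and standard errors rest on that spread over all genes. In bulk RNA, fewer cells that express a gene and less of its RNA in each cell cannot be told apart.

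MMPs are zinc-dependent enzymes that cut collagens, laminins, proteoglycans and other proteins outside the cell, and most are made as inactive proenzymes. TIMPs bind the active site of MMPs and block it, and TIMP2 also takes part, together with the membrane-anchored MMP14, in the activation of pro-MMP2 at the cell surface. TFPI2 is a secreted Kunitz-type inhibitor of serine proteases such as plasmin and trypsin, and plasmin is an activator of several pro-MMPs. These proteins are studied in breast cancer because invading cells must pass the basement membrane and the collagen-rich stroma.

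The promoters of the genes with the largest difference in each direction, TFPI2 and MMP11, and of TIMP1 and TIMP3, which differed in opposite directions, are shown as the 250 bases before the annotated start, 5′ to 3′ on the strand of the gene (RefSeq, GRCh38.p14). Of the 9 genes with values, 5 had an entry in the promoter table, the fifth being MMP14. Capitals mark 3 motifs, searched on both strands: TGANTCA, a form of the AP-1 site, GGGCGG, the GC box, and TATAA, a word often found shortly before the start of a gene.
TFPI2, chr7:93890754-93891003, minus strand: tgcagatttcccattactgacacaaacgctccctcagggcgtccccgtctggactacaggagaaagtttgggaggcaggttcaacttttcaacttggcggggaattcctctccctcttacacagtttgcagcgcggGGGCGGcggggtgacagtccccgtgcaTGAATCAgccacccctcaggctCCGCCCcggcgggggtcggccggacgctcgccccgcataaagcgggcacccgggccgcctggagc
MMP11, chr22:23772599-23772848, plus strand: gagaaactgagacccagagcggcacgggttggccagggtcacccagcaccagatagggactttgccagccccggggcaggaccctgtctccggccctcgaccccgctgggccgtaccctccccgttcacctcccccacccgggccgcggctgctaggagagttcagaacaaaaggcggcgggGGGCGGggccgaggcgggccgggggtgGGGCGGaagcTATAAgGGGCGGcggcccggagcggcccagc
TIMP1, chrX:47582186-47582435, plus strand: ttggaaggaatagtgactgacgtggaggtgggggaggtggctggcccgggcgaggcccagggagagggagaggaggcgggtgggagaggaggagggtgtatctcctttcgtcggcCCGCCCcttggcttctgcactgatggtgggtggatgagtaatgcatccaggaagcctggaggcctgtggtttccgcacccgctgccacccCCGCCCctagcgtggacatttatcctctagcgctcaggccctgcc
TIMP3, chr22:32801455-32801704, plus strand: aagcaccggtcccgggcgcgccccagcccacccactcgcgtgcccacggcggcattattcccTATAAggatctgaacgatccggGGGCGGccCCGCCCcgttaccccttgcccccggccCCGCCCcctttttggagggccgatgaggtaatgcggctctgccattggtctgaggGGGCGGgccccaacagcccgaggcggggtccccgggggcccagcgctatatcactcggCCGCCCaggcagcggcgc

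TGANTCA was found in the TFPI2 window, starting 87 bases before the start, and in none of the other 4 windows. Across the 35116 promoters of the table, 6.57% held TGANTCA, 42.6% held GGGCGG and 18.9% held TATAA in the same 250 bases. GGGCGG occurred at 2 positions for TFPI2, 3 for MMP11, 2 for TIMP1, 5 for TIMP3 and 1 for MMP14. TATAA lay 31 bases before the start of MMP11 and 188 bases before that of TIMP3. A match is a description of letters and not evidence of a bound site.

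Values are CPM (read counts relative to library size, on which the authors applied TMM scaling factors), and each log2 change is the difference of log2(CPM + 1), high minus low glucose, with its standard error. Each standard error was moderated by the fit over all genes, so it is not the spread of that gene alone. The libraries held an estimated 9721649 to 12482542 reads, and 3 reads, taken as the detection floor, were worth 0.212 to 0.267 CPM (counting error only). A level of 1 CPM was reached by 14111 to 14477 genes per library. ESR1, which encodes the estrogen receptor, was at or below 0.17 CPM in all 8 libraries, as for a line without that receptor. PGR, which encodes the progesterone receptor, was above the floor in all of them, at 4.33 to 5.95 CPM. Of 4 mesenchymal genes, VIM was lower at high glucose (4091 ± 28.5 and 2967 ± 210.3 CPM), and CDH2, ZEB1 and AXL were higher, with log2 changes of 0.44, 0.44 and 0.49. Of 6 epithelial genes, KRT8 (131 ± 5.95 and 88.3 ± 10.3 CPM) and KRT18 (233 ± 4.85 and 170.1 ± 18.1 CPM) were lower and EPCAM (4.50 ± 0.414 and 7.00 ± 0.445 CPM) was higher at high glucose, KRT14 was at 0, and KRT5 and CDH1 did not exceed 0.495 and 1.41 CPM. Of 3 leukocyte genes in the table, PTPRC did not exceed 0.178 CPM, LYZ did not exceed 0.0706 CPM, and CD14 spanned 0.801 to 1.58 CPM in low glucose and 2.76 to 5.79 CPM in high glucose libraries. Among fibroblast markers, DCN, LUM and PDGFRB were expressed at low glucose at 299 to 313, 870 to 919 and 1438 to 1474 CPM, and at high glucose at 120 to 146, 336 to 373 and 738 to 789 CPM, while PDGFRA was at 21.1 ± 1.82 and 20.9 ± 2.50 CPM (SD, n = 4 each). Of 3 endothelial genes, PECAM1, VWF and CDH5 did not exceed 2.84, 1.53 and 0.364 CPM. The part of these marker differences in the results that follow was not tested. HG1 stood apart from the other high glucose libraries along transcript length: across 11223 genes, which are not independent replicates, its deviation from the group mean had a Spearman's rho of -0.650 with length, against 0.248 to 0.466 for HG2 to HG4 and -0.133 to 0.0562 at low glucose. Values without HG1 are given beside results where leaving it out changed the call of a named gene or the count of a list, and for some further genes.

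In the fit over all genes, 8 of the 9 genes had an adjusted p under 0.05, against 46.8% of all genes. Higher at high glucose were 3 (all genes, 22.0%), and lower were 5 (all genes, 24.8%). The groups of 4 libraries did not overlap for 8 of the 9, against 44.5% of all genes. The 8 include MMP1, whose nearest libraries, LG1 at 0.0834 and HG4 at 0.178 CPM, were both under the floor. The shares over all genes include many near the floor, and the share without overlap was not computed for expressed genes alone. With a minimum mean of 5 CPM, 7 of 7 members and 8120 of 11297 genes had an adjusted p under 0.05. Because the genes were selected on this contrast, these counts are a description and no p is given for them.

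TFPI2 (ENSG00000105825.13, chromosome 7, 93885396 to 93890753, minus strand) had the largest difference toward high glucose. Its level was 18.1, 18.0, 19.4 and 18.6 CPM in LG1 to LG4. In HG1 to HG4 it was 81.2, 79.5, 79.7 and 82.1 CPM. Every high glucose library was thus far above every low glucose library, and the spread within each group was small. The means were 18.5 ± 0.638 and 80.6 ± 1.27 CPM (SD, n = 4 each), 4.35 times as high at high glucose, with a log2 change of 2.06 ± 0.028 (SE). In the fit with a minimum mean of 5 CPM the SE was 0.052. TFPI2 lies inside the span of GNGT1 on the other strand, and 1.80% of its exon bases are shared. GNGT1, which encodes a subunit of the transducin G protein of photoreceptors, stayed at 0.0706 to 0.68 CPM.

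MMP11 (ENSG00000099953.10, chromosome 22, 23772849 to 23784316, plus strand) had the largest difference toward low glucose. MMP11 is a stromelysin family member that is cleaved to its active form inside the cell by furin. The low glucose libraries were at 9.50, 8.86, 9.17 and 8.23 CPM. The high glucose libraries were at 2.05, 1.99, 1.24 and 0.978 CPM. The lowest low glucose value was above the highest high glucose value, and the high glucose values varied with a coefficient of variation of 34.4%. Means were 8.94 ± 0.541 and 1.56 ± 0.538 CPM (SD, n = 4 each), 5.72 times as high at low glucose, with a log2 change of -1.98 ± 0.16 (SE). The pseudocount understates this gene: with 0.1 in place of 1, the log2 change was -2.50.

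MMP14 (ENSG00000157227.13, chromosome 14, 22836585 to 22847758, plus strand) encodes the membrane-anchored collagenase that activates pro-MMP2. Low glucose libraries held 77.9, 82.7, 81.0 and 85.6 CPM, and high glucose libraries 44.8, 48.5, 44.2 and 42.5 CPM. The groups were well apart, 81.8 ± 3.19 against 45.0 ± 2.56 CPM (SD, n = 4 each), a log2 change of -0.85 ± 0.046 (SE).

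MMP2 (ENSG00000087245.13, chromosome 16, 55478830 to 55506691, plus strand), gelatinase A, cuts denatured collagen and basement membrane collagen. It was at 287, 295, 294 and 285 CPM in LG1 to LG4 and at 239, 238, 247 and 237 CPM in HG1 to HG4. The means were 290.1 ± 5.05 and 240.3 ± 4.70 CPM (SD, n = 4 each), with a log2 change of -0.27 ± 0.021 (SE). On the log2 scale this was the smallest difference among the MMP members with a mean above 1 CPM. Still, no high glucose library reached a low glucose one. Of its exon bases, 3.70% are shared with an unnamed transcript on the same strand.

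MMP1 (ENSG00000196611.5, chromosome 11, 102789919 to 102798160, minus strand), the interstitial collagenase, and MMP3 (ENSG00000149968.12, chromosome 11, 102835801 to 102843609, minus strand), a stromelysin that can activate other pro-MMPs, are neighbours and were close to the detection floor. For MMP1 the values were 0.0834, 0, 0 and 0 CPM at low glucose and 0.565, 0.558, 0.742 and 0.178 CPM at high glucose. To the nearest read these are 1 read in all low glucose libraries and 26 reads in all high glucose libraries. The ratio of 25.7 rests on so few reads that its size is very uncertain, and it is a description only. HG4, with 2 reads, was under the floor of 3 reads, and the other 3 high glucose libraries were above it. The log2 change was 0.55 ± 0.11 (SE) with a pseudocount of 1 and 2.28 with 0.1, so its size depends on that choice. MMP3 was at 0, 0.0828, 0 and 0 CPM at low glucose and at 0, 0.239, 0.165 and 0 CPM at high glucose, no more than 3 reads in any library, and no fold is given for it. MMP1 shares 8.15% of its exon bases, and MMP3 1.73%, with the pseudogene WTAPP1 on the other strand, which spanned 0.583 to 1.19 CPM in low glucose and 0.267 to 0.495 CPM in high glucose libraries.

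TIMP1 (ENSG00000102265.12, chromosome X, 47582436 to 47586789, plus strand) encodes a soluble inhibitor of most secreted MMPs. It was at 269.8, 276, 275 and 267 CPM at low glucose and at 207, 177, 177 and 155 CPM at high glucose. The means were 272 ± 4.41 and 179 ± 21.7 CPM (SD, n = 4 each), and the log2 change was -0.61 ± 0.081 (SE). High glucose libraries varied more than low glucose ones, with coefficients of variation of 12.1% and 1.62%, and HG1 was the highest of them. The canonical transcript of TIMP1, 769 bases long, is the shortest of the 9. Without HG1 the log2 change was -0.68, and with the trend on transcript length removed it was -0.49.

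TIMP2 (ENSG00000035862.12, chromosome 17, 78852977 to 78925387, minus strand) encodes an inhibitor that also takes part in the activation of pro-MMP2. It was at 1225, 1223, 1215 and 1215 CPM at low glucose and at 988, 929, 929 and 928 CPM at high glucose. HG1 lay above the other 3 high glucose libraries and still below every low glucose one. Means were 1219 ± 5.00 and 944 ± 29.8 CPM (SD, n = 4 each), and the log2 change was -0.37 ± 0.033 (SE), or -0.19 with quantile normalization. TIMP2 shares 3.61% of its exon bases with CEP295NL on the same strand, a gene at 0.219 to 0.776 CPM, and 5.91% with an unnamed noncoding transcript on the other strand.

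TIMP3 (ENSG00000100234.11, chromosome 22, 32801705 to 32863041, plus strand) encodes the TIMP that binds to the extracellular matrix and that also inhibits ADAM17. Its direction was opposite to that of TIMP1 and TIMP2, with 96.5, 90.4, 94.1 and 86.8 CPM at low glucose and 109.3, 109.4, 107 and 118 CPM at high glucose. The highest low glucose library was below the lowest high glucose library. Means were 92.0 ± 4.25 and 111 ± 4.98 CPM (SD, n = 4 each), and the log2 change was 0.27 ± 0.044 (SE), or 0.15 with quantile normalization.

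**Figure D1:**
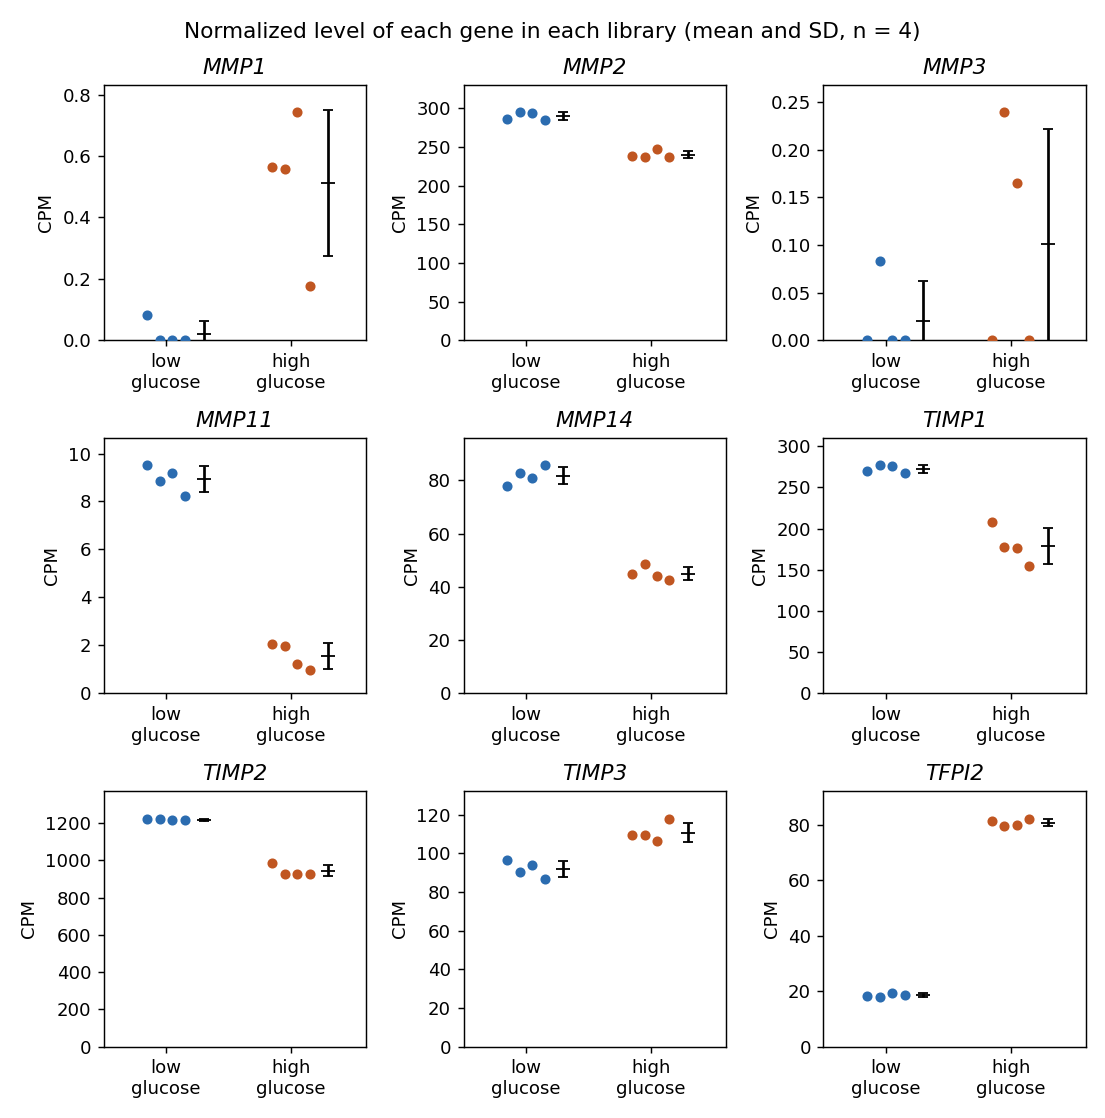
Each panel plots the CPM of 1 gene in the 4 low glucose libraries (blue, LG1 to LG4 from left to right) and the 4 high glucose libraries (orange, HG1 to HG4), with the mean and SD beside them on an axis that starts at 0. TFPI2 and TIMP3 were higher and MMP2, MMP11, MMP14, TIMP1 and TIMP2 lower at high glucose with no overlap, while MMP1 and MMP3 stayed below 1 CPM.

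**Figure D2:**
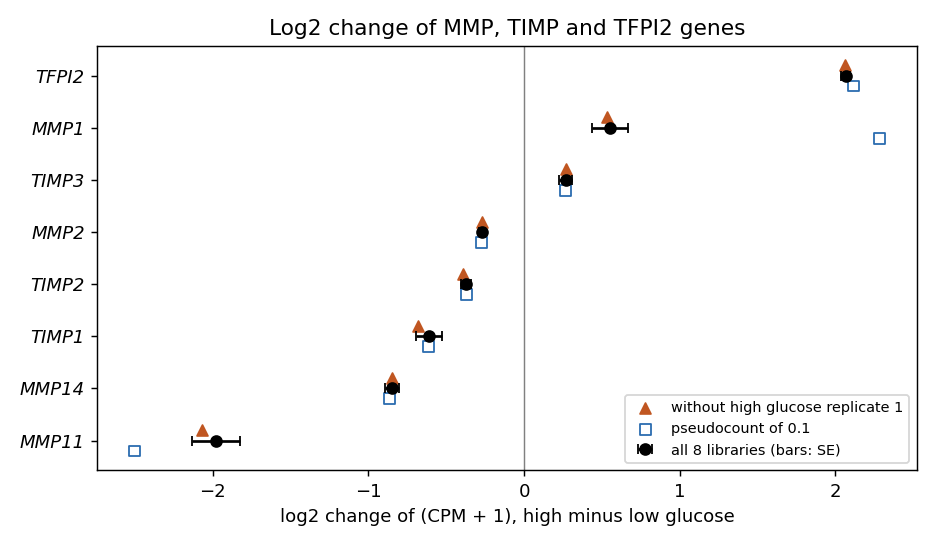
The horizontal axis is the log2 change of CPM + 1, high minus low glucose, for 8 genes, MMP3 left out. Black points with bars are the change and its SE over 8 libraries, triangles the change without HG1, and open squares the change with a pseudocount of 0.1. Changes run from -1.98 for MMP11 to 2.06 for TFPI2, and the pseudocount moves MMP1 and MMP11 more than leaving out HG1 does.

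To set levels of different genes side by side, CPM was divided by the length of the canonical transcript in kilobases. At low glucose the order of level per kilobase was TIMP1 (354 ± 5.74 CPM per kb), TIMP2 (334 ± 1.37), MMP2 (82.5 ± 1.44), MMP14 (22.1 ± 0.863), TIMP3 (20.0 ± 0.924), TFPI2 (8.39 ± 0.289) and MMP11 (3.95 ± 0.239), with MMP3 and MMP1 under 0.02. Neighbours in this order were separated by more than their SDs (n = 4), except MMP3 and MMP1. At high glucose TIMP2 (258 ± 8.17 CPM per kb) and TIMP1 (233 ± 28.3) led and did not differ beyond their spread. They were followed by MMP2 (68.4 ± 1.34), TFPI2 (36.5 ± 0.576), TIMP3 (24.1 ± 1.08), MMP14 (12.2 ± 0.690), MMP11 (0.692 ± 0.238), MMP1 (0.259 ± 0.121) and MMP3 (0.0554 ± 0.0661), each apart from the next by more than their SDs. TFPI2 thus had rank 6 in level per kilobase at low glucose and rank 4 at high glucose.

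Summed per kilobase, the 5 MMP genes were at 107, 110.3, 109 and 108 CPM per kb in LG1 to LG4 and at 81.3, 82.1, 83.3 and 79.5 CPM per kb in HG1 to HG4. The sum was lower at high glucose in every library, 81.5 ± 1.61 against 109 ± 1.52 CPM per kb (SD, n = 4). MMP2 made up 76.0% ± 0.558 of this sum at low and 83.9% ± 1.07 at high glucose, and MMP14 made up 20.3% ± 0.776 and 14.9% ± 0.750. The 3 TIMP genes summed to 707, 714, 711 and 699 CPM per kb at low glucose and to 564, 509, 507 and 481 CPM per kb at high glucose, so both sums were lower. The ratio of the TIMP sum to the MMP sum was 6.61, 6.47, 6.50 and 6.49 at low glucose and 6.94, 6.20, 6.09 and 6.05 at high glucose. HG1 was above and the other 3 high glucose libraries were below all low glucose libraries, so the ratio, 6.52 ± 0.0628 against 6.32 ± 0.418 (SD, n = 4), had no common direction.

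**Figure D3:**
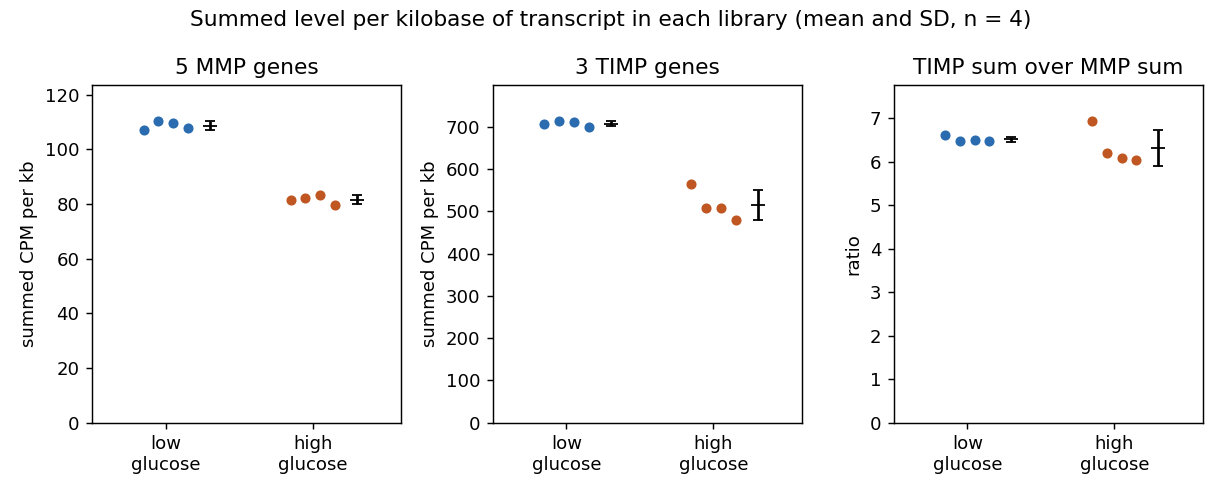
The panels plot, for each library, the summed CPM per kb of the 5 MMP genes and of the 3 TIMP genes, and the ratio of the TIMP sum to the MMP sum (blue low glucose, orange high glucose, mean and SD with n = 4). Both sums are lower in all 4 high glucose libraries, and the ratio in HG1, 6.94, lies apart from 6.05 to 6.20 in the other 3.

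The genes whose log2(CPM + 1) over the 8 libraries was most like that of TFPI2, among 11297 genes of at least 5 CPM, were SLC30A1, a zinc exporter, SLC38A2, an amino acid transporter, and ADAMTS1, a secreted metalloprotease that cuts proteoglycans. ADAMTS1 had means of 53.0 ± 1.43 and 229.5 ± 10.1 CPM in low and high glucose libraries (SD, n = 4), and SLC30A1 had means of 27.0 ± 0.891 and 121 ± 3.11 CPM. For MMP11 they were SORBS3, PHYH and MAN1B1. Pearson's r was 0.9998, 0.9997 and 0.9995 for the first 3 genes and 0.998, 0.998 and 0.997 for the others, and the libraries share their group, so the values describe likeness and carry no p.

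Other genes of the same pathways were read from lists that do not hold the 9 genes, and adjusted p-values are from limma over all genes. Because the 46.8% of all genes called includes genes near the floor, counts with a minimum mean of 5 CPM are also given for most lists. In that fit 8120 of 11297 genes were called. The gene of each list with the highest mean CPM over the 8 libraries is also given, a mean that is not corrected for length. Of 13 other MMPs in the table, 2 fell and none rose, against 46.8% of all genes called. Only 5 of the 13 had a mean of at least 1 CPM, and MMP7 and MMP26 were at 0 in every library. With that minimum mean, 3 of the 5 were called, against 9631 of 14372 genes, so the low count does not show a weaker response. MMP25, a membrane-anchored MMP of leukocytes, went from 5.31 ± 0.866 to 3.33 ± 0.945 CPM (log2 change -0.56 ± 0.18, SE; adjusted p = 0.0402), and MMP28 from 0.983 ± 0.262 to 0.465 ± 0.255 CPM (-0.44 ± 0.15; adjusted p = 0.0447), both named because the count is small. Dropping 1 library at a time ended each of these calls in 6 of 8 fits, and no gene of the list was called without LG2, HG3 or HG4. Without HG1, MMP25 was called with a log2 change of -0.68 (adjusted p = 0.0149) and MMP28 was not, with -0.38 (adjusted p = 0.101). MMP16, a membrane-type MMP with the highest mean CPM of the list, was at 108 ± 3.56 and 128 ± 17.3 CPM (0.23 ± 0.096; adjusted p = 0.0875), and without HG1 the difference passed, at 0.33 (adjusted p = 0.00185). The median log2 change of the 13 was -0.02, against -0.01 over all genes.

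Of 18 inhibitors, activators and surface partners of MMPs, 6 rose and 6 fell, 66.7% of the list against 46.8% of all genes. With a minimum mean of 5 CPM, 12 of 13 were called, against 8120 of 11297 genes. LRP1, the endocytic receptor that takes up MMP and TIMP complexes, fell from 202 ± 6.92 to 67.2 ± 8.57 CPM (log2 change -1.58 ± 0.09, SE; adjusted p = 1.3e-05). FURIN, the protease that activates MMP11 and MMP14, rose from 35.8 ± 3.73 to 62.8 ± 5.88 CPM (0.79 ± 0.09; adjusted p = 0.000397). PLAUR, the receptor of urokinase, rose from 4.66 ± 0.659 to 8.49 ± 0.762 CPM (0.75 ± 0.10; adjusted p = 0.000785). The fourth member of the TIMP family, TIMP4, was at 0.712 ± 0.191 and 0.366 ± 0.225 CPM and did not pass (adjusted p = 0.0808, and 0.0529 without HG1). CD63, a tetraspanin that binds TIMP1 and has the highest mean CPM of the list, was at 713 ± 15.5 and 819.7 ± 90.4 CPM (0.20 ± 0.074; adjusted p = 0.0678). Without HG1, which was the highest library, it passed with 0.12 (adjusted p = 0.00445). A2M, a plasma protease inhibitor counted among the 6 that fell, was at or under 3 reads in every library, and no fold is given for it. The median of the list was 0.10. Without HG1, 13 of the 18 genes were called, against 12 with all libraries.

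Of 8 Kunitz-domain inhibitors besides TFPI2, 3 rose and 1 fell, and 4 of 8 is near the 46.8% of all genes. With a minimum mean of 5 CPM, 4 of 4 were called, against 8120 of 11297 genes. PAPLN, a secreted matrix protein with Kunitz domains, fell from 24.8 ± 1.54 to 8.41 ± 0.601 CPM (log2 change -1.46 ± 0.06, SE; adjusted p = 4.54e-06). APLP2 rose from 115 ± 4.13 to 179.5 ± 6.35 CPM (0.64 ± 0.04; adjusted p = 1.16e-05), and its relative APP, with the highest mean CPM of the list, by 0.21 ± 0.035 (adjusted p = 0.00212). TFPI, the inhibitor of the tissue factor pathway, rose from 105 ± 3.44 to 131 ± 4.91 CPM (0.31 ± 0.03; adjusted p = 0.000299). The median of the 8 was 0.24.

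Of 10 ADAM proteases, 2 rose and 2 fell, and 4 of 10 is near the 46.8% of all genes. With a minimum mean of 5 CPM, 5 of 6 were called, against 8120 of 11297 genes. ADAM17, the sheddase of TNF and of growth factor precursors, rose from 83.4 ± 3.29 to 117 ± 8.01 CPM (log2 change 0.48 ± 0.05, SE; adjusted p = 0.000316). ADAM9, with the highest mean CPM, rose by 0.20 ± 0.04 (adjusted p = 0.00832). ADAM12 and ADAM19 fell, by 0.46 and 0.44 on the log2 scale (adjusted p = 0.00466 and 0.00042), and without HG1 ADAM12 fell by 0.38. The median of the 10 was 0.01.

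Of 26 matrix proteins that MMPs can cut, 21 fell (all genes, 24.8%) and 1, NID1, rose (all genes, 22.0%), with a median log2 change of -0.78 against -0.01 over all genes. With a minimum mean of 5 CPM, 23 of 25 were called, against 8120 of 11297 genes. COL1A2 fell from 18.7 ± 0.586 to 4.96 ± 0.688 CPM (log2 change -1.73 ± 0.09, SE; adjusted p = 8.18e-06) and COL1A1, the other chain of type I collagen, fell from 2145 ± 98.2 to 861 ± 74.8 CPM (-1.32 ± 0.07; adjusted p = 1.23e-05). COL3A1, the chain of type III collagen, fell from 17321 ± 289 to 5681 ± 165 CPM (-1.61 ± 0.17; adjusted p = 0.000215). LUM, a proteoglycan that binds collagen fibrils, fell by 1.36 ± 0.04 (adjusted p = 1.23e-06). SPARC, a collagen-binding glycoprotein with the highest mean CPM of the list, fell from 21705 ± 278 to 12226 ± 406 CPM (-0.83 ± 0.27; adjusted p = 0.0384). Dropping 1 library at a time ended that call in 7 of 8 fits, with changes of -0.84 to -0.82 in those, and it stayed without HG1, at -0.85 (adjusted p = 0.00124). The SPARC libraries themselves varied little within groups, with a pooled SD of 0.036 on the log2 scale. With minimum means of 1 and 5 CPM its SE was 0.062 and 0.057, and it was called (adjusted p = 1.25e-07 and 6.99e-08). For COL3A1 the pooled SD was 0.034, and the SEs in those fits were 0.057 and 0.053. Under quantile normalization COL3A1 had a change of -0.51 and SPARC of 0, since that scaling gives the top genes of each library set values. NID1, a basement membrane linker, rose by 0.17 ± 0.06 (adjusted p = 0.0453), a call likewise ended in 7 of 8 fits and present without HG1, at 0.23 (adjusted p = 0.000569). Fibroblast markers DCN and LUM are in this list, and as above they were abundant at low glucose. Without HG1, 24 of the 26 matrix genes were called, against 22 with all libraries.

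Of 16 transcription factors known at MMP promoters, 10 rose (all genes, 22.0%) and 1, JUND, fell (all genes, 24.8%), with a median log2 change of 0.34 against -0.01 over all genes. With a minimum mean of 5 CPM, 11 of 15 were called in either direction, near the share of 8120 of 11297 genes. ETV4, an ETS family factor, rose from 4.36 ± 0.854 to 20.0 ± 3.25 CPM (log2 change 1.97 ± 0.15, SE; adjusted p = 4.58e-05), and its relative ETV5 rose from 14.6 ± 0.634 to 43.6 ± 0.916 CPM (1.52 ± 0.03; adjusted p = 6.21e-07). FOSL1 and FOS, which are subunits of the AP-1 complex, rose by 1.81 ± 0.08 (adjusted p = 4.49e-06) and 1.69 ± 0.10 (adjusted p = 1.41e-05). JUND, another AP-1 subunit, fell by 0.28 ± 0.07 (adjusted p = 0.0123). FOSL2, with the highest mean CPM, was at 251 ± 3.59 and 242 ± 9.15 CPM (adjusted p = 0.201). Without HG1, 12 of the 16 factors were called, against 11 with all libraries.

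TIMP1 lies within the span of SYN1 and TIMP3 within that of SYN3, each on the other strand, and whether the counts use strand is not given in the sources used here. SYN1, a synaptic vesicle gene, fell from 3.88 ± 0.298 to 2.31 ± 0.175 CPM (log2 change -0.56 ± 0.07, SE; adjusted p = 0.000652). SYN3 was at 0.0825 to 0.364 CPM in all libraries (adjusted p = 0.688), and SYN2, with the highest mean CPM of the synapsin genes over all 8 libraries, was at 3.50 ± 0.467 and 3.33 ± 0.323 CPM (adjusted p = 0.705).

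**Figure D4:**
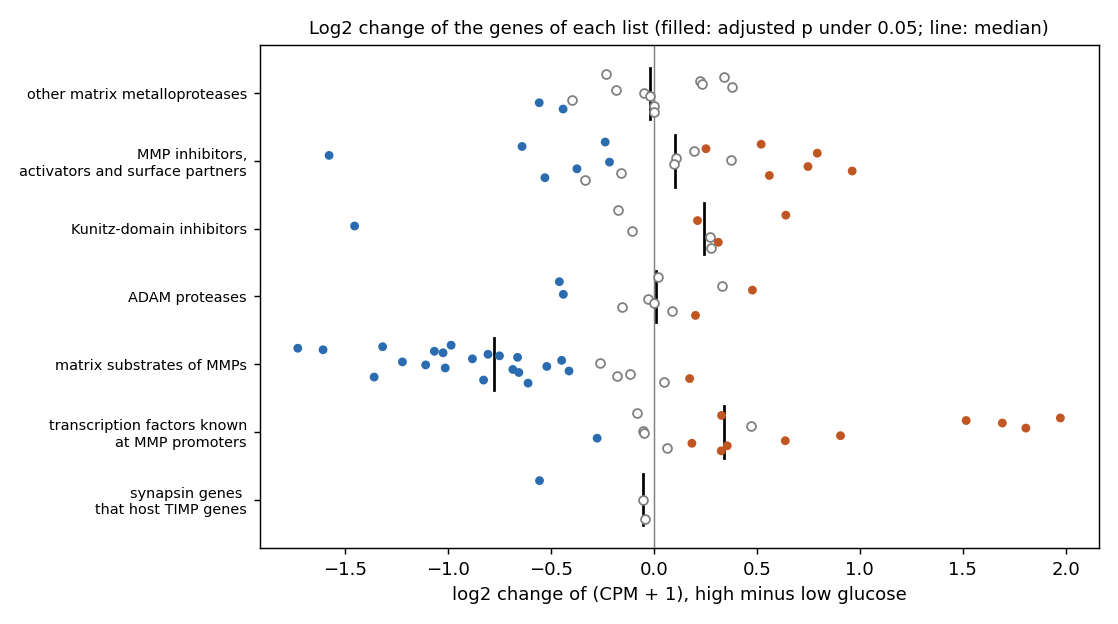
Each point is 1 gene of a list, placed by its log2 change of CPM + 1, high minus low glucose. Filled points have an adjusted p under 0.05 (orange higher, blue lower), open points do not, and the black line is the median of the list. Matrix proteins lie mostly to the left with a median of -0.78, and the transcription factors have a median of 0.34.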

How the data were processed

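RNA of 8 samples of MDA-MB-157 cells was sequenced on an Illumina HiSeq. The authors deposited 1 table of CPM values, scaled with edgeR TMM factors, and the submitters' processing notes name edgeR and hg38. The aligner, counter, annotation release and use of strand for this table are not given in the sources used here. Of the values below 200 reads, 73.2% to 74.5% were whole multiples of 1 read (tolerance 0.02 read), so whole reads were not recovered and no count test was run. After 18 identical Y copies were dropped, all 21059 genes were tested as log2(CPM + 1) with limma 3.58.1 in R 4.3.3 (lmFit, eBayes with trend, 2-sided, no covariate), with Benjamini-Hochberg adjustment over all genes at 0.05. Reads per library were estimated as the column sum over the value of 1 read, and the floor was 3 reads. Positions are from RefSeq on GRCh38.p14, and lengths are of canonical transcripts in GENCODE 44 on GRCh37. The fit was also run on simulated counts with few changed genes and no length trend. That setting differs from these data, so the run does not bear on the calls here. The members and lists were chosen with earlier results of these data known. The named genes are, besides the 10 members, in each list up to 4 genes with the largest change among those with an adjusted p under 0.05 and a mean of at least 5 CPM, the most abundant gene, and the 3 genes most like TFPI2 and MMP11. Of the genes this rule selects, 1 is not reported here. MMP25, MMP28, NID1, JUND, TIMP4, SYN1, SYN3 and genes that overlap members were named after their values were seen or for their position. Alternatives were a pseudocount of 0.1, minimum means of 1 and 5 CPM, equal totals, median-of-ratios scaling, quantile normalization, removal of the length trend with a spline, a replicate block and leaving out each library.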

Additional observations from a re-analysis of the deposited data

Results flagged for a closer look

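In each group of 4 libraries, the distance from an extreme library to its neighbour was taken as a share of the whole range. Of 95 groups examined, 10 had a library set apart. Independent groups would give about 4.75 by chance, but these groups share the same 8 libraries, so no excess can be read from the count. TIMP2 at high glucose was highest in HG1, 988 CPM, with a gap of 0.984 of the range. CD63 at high glucose was highest in HG1, 955 CPM, with a gap of 0.949. SPARC at high glucose was highest in HG1, 12829 CPM, with a gap of 0.845. APP at low glucose had LG4 apart, at 1215 CPM with a gap of 0.861. MMP1 at low glucose (LG1, 0.0834 CPM) and MMP3 at low glucose (LG2, 0.0828 CPM) had a gap of 1 because 1 read was seen in 1 library and 0 in the others. MMP28 at low glucose was lowest in LG3, 0.595 CPM, with a gap of 0.842. SLC30A1 at low glucose was highest in LG3, 28.4 CPM, with a gap of 0.840. ADAMTS1 at high glucose was highest in HG4, 244 CPM, with a gap of 0.836. SORBS3 at low glucose had LG1 apart, at 35.4 CPM with a gap of 0.830.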

How the results depend on the processing

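The direction of the log2 change was kept by all 9 members under every alternative run, and 126 of the 138 recomputed values moved by less than 1 SD between replicates. The other 12 were those of MMP1, MMP3, MMP11 and TFPI2 with a pseudocount of 0.1 (2.28, 0.57, -2.50 and 2.12), of MMP2, MMP14, TIMP2 and TIMP3 with quantile normalization (-0.34, -0.93, -0.19 and 0.15), of MMP2, TIMP2 and TFPI2 with median-of-ratios scaling (-0.23, -0.33 and 2.11), and of TFPI2 with the length trend removed (2.12). Quantile normalization also moved TFPI to 0.18, APP to 0.44 and COL3A1 to -0.51. The members called were 8 of 9, or 7 of 7 in the fits that left out genes of low mean. With a minimum mean of 5 CPM, SEs were larger for MMP2, MMP14, TIMP2, TIMP3 and TFPI2, at 0.039 for MMP2 and 0.052 for TFPI2. They were smaller for MMP11 and TIMP1, at 0.150 and 0.071. Genes called over the whole table ranged from 8120, of 11297 with a minimum mean of 5 CPM, to 10156 of 21059, against 9849 of 21059. For the other MMPs, against 2 of 13 called, 1 of 13 was called with a pseudocount of 0.1, equal totals or quantile normalization. Minimum means of 1 and 5 CPM gave 3 of 5 and 1 of 1, and removal of the length trend 4 of 5. Between 0 and 3 of 13 were called when 1 library was left out. SYN2, which was not called, changed sign with quantile normalization (0.097) and without LG1, where leaving out 1 library gave -0.093 to 0.014. SYN3, not called either, ranged from -0.089 to 0.022 in the fits without 1 library, the latter without LG4. Of the 609 values of the other named genes, 555 kept their direction and their side of the threshold. SPARC was set to a log2 change of 0 by quantile normalization, which gives the most abundant gene of each library the same value. MMP1, MMP3 and, at high glucose, MMP11 rest on few reads, which limits their precision.

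The labels do not say whether same-numbered libraries of the 2 groups were cultured as pairs. Deviations of same-numbered libraries from their group means correlated at 0.0692, -0.0280, 0.0136 and -0.0403. Values near 0 do not exclude pairing, because deviations at high glucose also followed transcript length. With the replicate block the fit called 8921 genes and 8 members, 20 of the matrix proteins and 9 of the transcription factors. SPARC, MMP25, NID1 and JUND were no longer called with it, and TIMP4 was.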
